A study of Homo sapiens with 12 samples.

Results

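The genes described here are 10 secreted signals of inflammation: the cytokines IL6, LIF, IL11, IL1A and IL1B and the chemokines CXCL8, CXCL1, CXCL2, CXCL3 and CCL2. They were chosen by symbol, by a rule that sets no threshold on measured values, but with earlier results of these data known. All 10 are among the 44659 genes of the count table. The samples were cultures of A375, a human skin melanoma line whose growth depends on mutant BRAF, and every value comes from this line alone. Control cells (CC) spent 72 h in DMSO, the solvent of the drugs. Treated cells (TC) were kept for 72 h in 500 nM vemurafenib, which inhibits BRAF, together with 500 nM cobimetinib, which inhibits MEK, a pair called MAPKi below, and were harvested at once. Persister cells (PC) had the same 72 h of MAPKi followed by 2 days in drug-free medium, and recovered cells (RC) had the same 72 h followed by 9 days in drug-free medium. Each group had 3 libraries of cytoplasmic RNA depleted of ribosomal RNA. The 3 libraries of a group are triplicates by their labels, which do not say whether they were grown as separate cultures, so the p-values measure the spread between these libraries. PC and RC were each harvested on a day of their own, and for these groups the harvest day and the condition cannot be told apart.

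IL6, IL11 and LIF belong to the gp130 family, whose members bind a receptor of their own and then recruit the shared signalling chain gp130, encoded by IL6ST, which activates JAK kinases and STAT3. CXCL8, CXCL1, CXCL2 and CXCL3 are chemokines that attract neutrophils through the receptors CXCR1 and CXCR2, CCL2 attracts monocytes through CCR2, and IL1A and IL1B act through IL1R1 and its partner IL1RAP. Melanoma cells are known to secrete several of these proteins. Transcription factors of the NF-kappaB, AP-1 and C/EBP families are known to act on many of the genes.

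The stretch just before the transcription start of these genes is shown because it is a well studied place of NF-kappaB and AP-1 binding in this gene set. Promoter windows from 250 bases before to 50 bases after the start were taken from RefSeq (GRCh38.p14), in which 8 of the 10 members were found by symbol, LIF and CCL2 not among them. A kappaB core, spelled GGANTTTCC and searched on both strands, was present in 5 of the 8 genes (CXCL8, CXCL1, CXCL2, CXCL3 and IL6), and in 577 (1.64%) of the 35116 windows of the whole table. An AP-1 site, spelled TGANTCA, was present in 3 of the 8 (CXCL8, IL11 and IL1A), and in 2707 (7.71%) of all windows. A match is a string of letters and not a measured binding site. The lines below give bases 150 to 51 before the start of 4 genes, 5′ to 3′ on the strand of the gene, with the kappaB and AP-1 matches in capitals. CXCL8 (chr4:73740419-73740518, plus strand) holds both motifs, CXCL1 (chr4:73869243-73869342, plus strand) and CXCL2 (chr4:74099246-74099345, minus strand) hold the kappaB core, and IL11 (chr19:55370514-55370613, minus strand) holds the AP-1 site.
CXCL8: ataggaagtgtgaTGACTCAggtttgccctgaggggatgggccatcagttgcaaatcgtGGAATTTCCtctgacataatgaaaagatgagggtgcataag
CXCL1: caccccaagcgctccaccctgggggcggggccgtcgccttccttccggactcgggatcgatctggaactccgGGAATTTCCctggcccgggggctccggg
CXCL2: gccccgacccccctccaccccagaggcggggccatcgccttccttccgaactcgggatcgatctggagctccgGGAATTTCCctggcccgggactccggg
IL11: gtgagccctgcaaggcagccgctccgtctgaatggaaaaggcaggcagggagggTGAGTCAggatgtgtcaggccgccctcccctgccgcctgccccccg
The kappaB core of CXCL8 lay 91 to 83 bases before the start and its AP-1 site 137 to 131 bases before it. These distances are from the RefSeq start. In GENCODE v44 CXCL8 begins further upstream, at chr4:73740519, the base that follows the printed stretch. The AP-1 site of IL11 lay 96 to 90 bases before the start. CXCL1 and CXCL2 are close copies, with 85.3% identity over this stretch and 93.5% identity between their coding sequences (GENCODE v44).

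The libraries held 37773389 to 55567097 counts each, at which 3 reads equal 0.0534 to 0.0785 CPM (read count scaled to the normalized library size), a floor that covers counting error only. Of all genes, 15916 had a mean count of at least 10, scaled to library size, over the 12 libraries and were tested. Among the 10 members, 4 passed this filter: IL11 (chr19:55364382-55370463, minus strand, GRCh38 with GENCODE v44), LIF (chr22:30240453-30246759, minus strand), CXCL8 (chr4:73740519-73743716, plus strand) and CXCL1 (chr4:73869393-73871308, plus strand). Reads on all exons of a gene were counted together. DUSP6, a phosphatase that ERK signalling switches on, was at 77.6, 94.4 and 297 CPM in the CC libraries. It was at 3.25 to 5.26 CPM in TC and still at 4.51 to 6.09 CPM in PC, after 2 days without drug. In RC it was at 125 to 145 CPM. Its log2 fold change in TC was -5.32 ± 0.49 (SE) with an adjusted p of 1.10e-06, where p-values come from edgeR's quasi-likelihood test, adjusted by Benjamini-Hochberg over all tested genes, and a gene is called under 0.05. CC replicate 3 stood apart from the other CC libraries in DUSP6, in SPRY4 (720 CPM against 342 and 270 CPM) and in several members. Without it the DUSP6 value was -4.45 (adjusted p = 5.24e-09), an alternative chosen after the data were seen, and the members' results that rest on it are given with and without it below. All 9 markers of melanoma and neural crest cells passed the filter. Their summed level was 1672 to 1899 CPM in CC, 12330 to 13887 CPM in TC, 10291 to 11186 CPM in PC and 1554 to 1628 CPM in RC. DCT and NGFR made up 82.1% to 84.9% of this sum in TC and PC and 20.4% to 28.3% in CC and RC, and S100B was called lower in TC (-0.91). Of 8 leukocyte markers, 5 were under 1 CPM in every library, PTPRC (0 to 0.694 CPM) and CD3E (0 to 0.0463 CPM) among them. Their sum (130 to 176 CPM in CC, 721 to 1066 CPM in TC, 633 to 776 CPM in PC and 120 to 133 CPM in RC) was almost all CD68, a lysosomal protein that other cells also make. Of 3 endothelial markers 2 were under 1 CPM in every library, and the sum was 1.67 to 5.23 CPM. Of 3 keratinocyte markers, KRT5 was under 1 CPM in every library, and the sum of 40.6 to 104 CPM was mostly KRT10. The part of these marker levels in the results below was not tested.

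IL11, a cytokine known for its role in fibrosis and bone turnover, was close to absent in control cells, rose during MAPKi, stood at its highest level 2 days after the drug was removed and was back near the control level at 9 days. Its level was 0.197, 0.158 and 0.466 CPM in the CC libraries (8, 7 and 22 reads), 13.9, 25.2 and 43.0 CPM in TC, 42.9, 55.2 and 62.9 CPM in PC, and 0.246, 0.196 and 0.265 CPM in RC (10, 11 and 14 reads). Every TC and PC library was above every CC and RC library. In TC the mean of 27.4 ± 14.7 CPM (SD, 3 libraries) was 97.4-fold that of CC in the fit, with a log2 fold change of 6.61 ± 0.48 (SE) and an adjusted p of 1.28e-07. In PC the mean was 53.7 ± 10.1 CPM, or 191-fold that of CC, with a log2 fold change of 7.57 ± 0.48 and an adjusted p of 4.16e-08. The control level rests on few reads, and without CC replicate 3, which held most of them, the mean CC level was 0.178 CPM in place of 0.274 CPM and the log2 fold changes were 7.26 in TC and 8.23 in PC.

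From PC to RC the IL11 level fell by 7.82 ± 0.49 on the log2 scale (adjusted p = 3.17e-08). RC and CC overlapped, with a log2 fold change of -0.25 and a wide 95% interval of -1.78 to 1.28 at these low counts. From TC to PC the IL11 level rose by 0.97 ± 0.32 on the log2 scale, with an adjusted p of 0.0455 close to the threshold. The highest TC library (replicate 3, 43.0 CPM) was just above the lowest PC library (replicate 1, 42.9 CPM). Each PC library was above the TC library of the same number, but whether the numbers pair the libraries was not settled. The call was lost in 11 of 20 alternative settings, over which the adjusted p ran from 0.00126 to 0.147. Without TC replicate 3 the difference was 1.46 on the log2 scale, with an adjusted p of 0.00349.

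LIF, named for its effect on leukaemia cells and known for holding stem cells undifferentiated, moved the opposite way to IL11. In the CC libraries it stood at 44.3, 40.1 and 113 CPM, in TC at 7.41, 6.46 and 6.29 CPM, in PC at 4.94, 5.13 and 5.85 CPM, and in RC at 54.4, 47.8 and 48.9 CPM. All TC and PC libraries were below all CC and RC libraries, and the TC and PC libraries lay close together. LIF fell by 3.29 ± 0.33 on the log2 scale in TC, which is 9.80-fold lower (adjusted p = 2.62e-06). In PC it was 12.4-fold lower, with a log2 fold change of -3.63 ± 0.34 and an adjusted p of 1.24e-06. Without CC replicate 3, the library at 113 CPM, the mean CC level was 42.2 CPM in place of 65.7 CPM, and the log2 fold changes were -2.65 in TC and -2.98 in PC, both still called.

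Between PC and RC, LIF rose by 3.24 ± 0.34 on the log2 scale (adjusted p = 2.89e-06). RC lay inside the wide range of CC, with a log2 fold change of -0.39 and a 95% interval of -1.04 to 0.27, and without CC replicate 3 this difference was 0.26. TC and PC differed by -0.34 (95% interval -1.06 to 0.39), although each PC library was below each TC library. Without CC replicate 3, which changes the shared estimate of the spread, this small difference passed the threshold with a log2 fold change of -0.33 and an adjusted p of 0.0233. LIF overlaps the antisense transcripts LIF-AS1 and LIF-AS2 by 86 and 83 exonic bases, and the strand setting of the counting is not given in the sources used here, so reads in these stretches cannot be assigned with certainty. LIF-AS2 had 33, 35 and 25 reads in CC, 2, 4 and 1 in TC, 2, 1 and 2 reads in PC, and 29, 42 and 20 in RC, against 189 or more reads of LIF in every library.

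**Figure D1:**
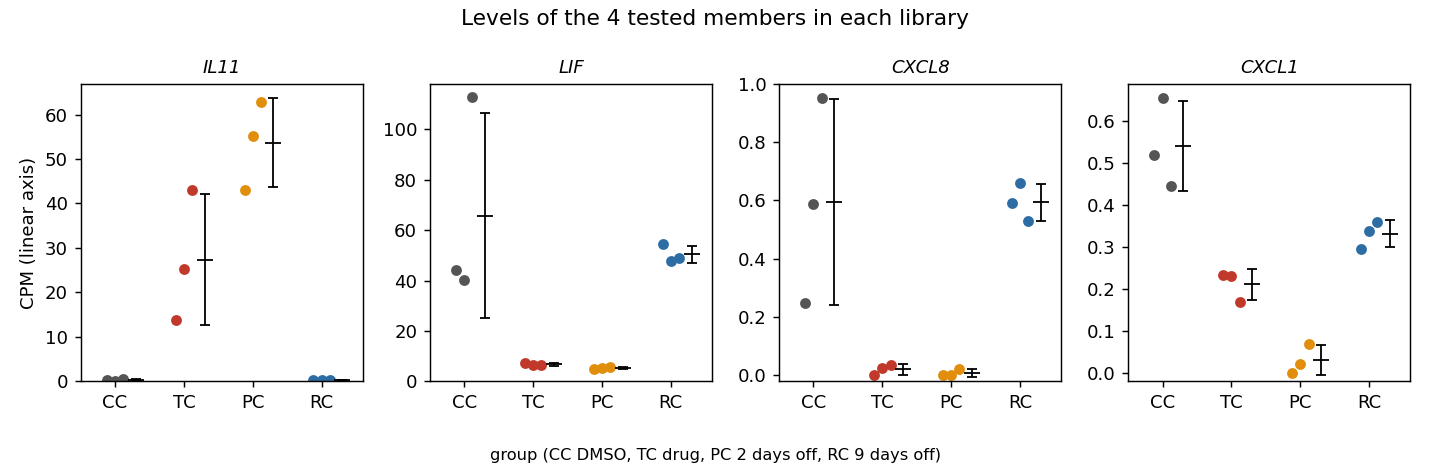
Level of IL11, LIF, CXCL8 and CXCL1 in CPM on a linear axis in each of the 12 libraries (coloured points, replicates 1 to 3 from left to right), with the mean and SD of each group in black. The TC and PC libraries of IL11 sit between 13.9 and 62.9 CPM, where CC and RC are under 1 CPM, while for the other 3 genes TC and PC lie below CC and RC.

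IL6, the founding member of the family, was close to absent throughout. It had 6, 3 and 1 reads in CC, 0, 1 and 0 in TC, 0, 3 and 2 reads in PC, and 1, 1 and 4 in RC, 22 reads in all, and it did not pass the filter. Its groups overlapped in every comparison. IL6 shares 428 exonic bases with its antisense gene IL6-AS1, which is listed at 0 in every library. Set per kilobase of annotated exon, IL11 in PC (20.0 CPM per kb) was at about the level of LIF in CC (17.0 CPM per kb), and IL11 in TC was at 10.2 CPM per kb. LIF in TC (1.74 CPM per kb) and PC (1.37 CPM per kb) stayed above IL11 in CC (0.102 CPM per kb) and RC (0.0880 CPM per kb).

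CXCL8, the neutrophil chemokine also called interleukin 8, was low in control cells and almost lost under MAPKi. It had 10, 26 and 45 reads in the CC libraries, 0, 1 and 2 in TC, 0, 0 and 1 reads in PC, and 24, 37 and 28 in RC. The drug-treated groups lay below CC and RC without overlap. CXCL8 passed the filter only through CC and RC (scaled mean counts of 26.7 and 27.2, against 0.921 in TC and 0.345 in PC), so that a gene kept at this level had to differ between groups. The ratio of the summed reads, scaled to depth, was 27.2 for CC over TC (81 against 3 reads, 95% exact interval 8.98 to 135) and 78.0 for CC over PC (81 against 1 read, interval 13.6 to 3120). Intervals of such ratios cover counting error only and not the spread between libraries, which for CXCL8 in CC ran from 10 to 45 reads. In the edgeR fit the log2 fold change was -4.57 ± 0.74 in TC (adjusted p = 0.000147) and -5.83 ± 0.86 in PC (adjusted p = 6.70e-05), sizes that depend on the few reads left. Without CC replicate 3 the values were -4.05 in TC and -5.30 in PC, both still called. Without TC replicate 3 the value in TC was -5.26, and without PC replicate 3, which held the single read of its group, the value in PC was -7.77.

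By day 9 CXCL8 was at 0.593 ± 0.065 CPM in RC, beside 0.595 ± 0.353 CPM in CC. The log2 fold change between them was -0.01 with a 95% interval of -1.10 to 1.07, and it was 0.50 without CC replicate 3. Relative to PC, CXCL8 rose in RC by 5.81 ± 0.86 on the log2 scale (adjusted p = 6.62e-05), or by a ratio of reads of 77.2 (interval 13.5 to 3084). TC and PC, with 3 reads and 1 read, could not be told apart at this depth.

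CXCL1, first described as a growth factor that melanoma cells secrete, fell in steps. Its counts were 21, 29 and 21 reads in CC, 9, 9 and 9 in TC, 0, 1 and 3 reads in PC, and 12, 19 and 19 in RC. In CPM the groups did not overlap, with CC (0.444 to 0.655 CPM) above RC (0.295 to 0.359 CPM), RC above TC (0.168 to 0.233 CPM) and TC above PC (0 to 0.0694 CPM). Like CXCL8, it passed the filter through CC and RC (scaled mean counts of 24.2 and 15.2, against 9.38 in TC and 1.36 in PC). In TC the log2 fold change was -1.36 ± 0.44 (adjusted p = 0.0162), and the call was lost without CC replicate 2 (-1.19, adjusted p = 0.0524) or when TC replicate 3 was left out (-1.21, adjusted p = 0.0596).

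CXCL1 was lower in PC than in CC by a log2 fold change of -3.99 ± 0.58 (adjusted p = 5.26e-05), and lower in PC than in TC by -2.64 ± 0.62 (adjusted p = 0.00893). Without PC replicate 3 these values were -5.22 and -3.86. It rose from PC to RC by 3.30 ± 0.59 (adjusted p = 0.000304), or 4.52 without PC replicate 3. In RC it remained below every CC library, but the difference of -0.69 (95% interval -1.61 to 0.22) did not pass the test (adjusted p = 0.215).

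CXCL2 and CXCL3 are near copies of CXCL1 and did not pass the filter. CXCL3 had 6, 13 and 11 reads in CC, 3, 1 and 3 in TC, 0, 2 and 7 reads in PC, and 9, 12 and 5 in RC. The summed reads of CC over TC gave a ratio of 4.31 (30 against 7 reads, interval 1.86 to 11.6), for counting error alone. The CC libraries were all above the TC libraries, but CXCL3 did not pass the test between libraries described below. CXCL2 had 7, 3 and 0 reads in CC, none in any TC or PC library, and 0, 1 and 4 in RC. A count of 0 allows up to 3 reads, or 0.0560 to 0.0785 CPM in the TC and PC libraries, and the CC level of 0.0802 ± 0.0870 CPM was too near to this limit to be compared. The coding sequences of CXCL1, CXCL2 and CXCL3 are 90.7% to 94.4% identical in pairs, and the handling of reads with several alignments is not given in the sources used here, so the split of reads between these 3 genes is uncertain. CXCL8 is 53.6% to 55.8% identical to them.

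IL1A, IL1B and CCL2 were at or near 0. IL1A, the alarm cytokine of damaged cells, had 4 reads in all, each in a different library. IL1B, which inflammasomes release, had 3 reads in 1 CC library, 1, 0 and 12 reads in TC, none in PC and 4 in 1 RC library. The 12 reads of TC replicate 3 made up most of its 20 reads, and no difference between groups rests on more than 1 library. CCL2 had 7 reads, 2 in TC and 5 in PC, and none in CC or RC. When every gene with at least 2 reads in all was tested (26649 genes), none of the 6 low members had an adjusted p under 0.05 in any of the 5 comparisons by edgeR, nor when no filter was set. The lowest adjusted p was 0.0539, for CXCL3 in TC, and at an unadjusted p under 0.05 there were 3 of the 6 in TC against CC, 2 in PC against CC, 1 in PC against TC and 0 in both RC against CC and RC against PC.

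**Figure D2:**
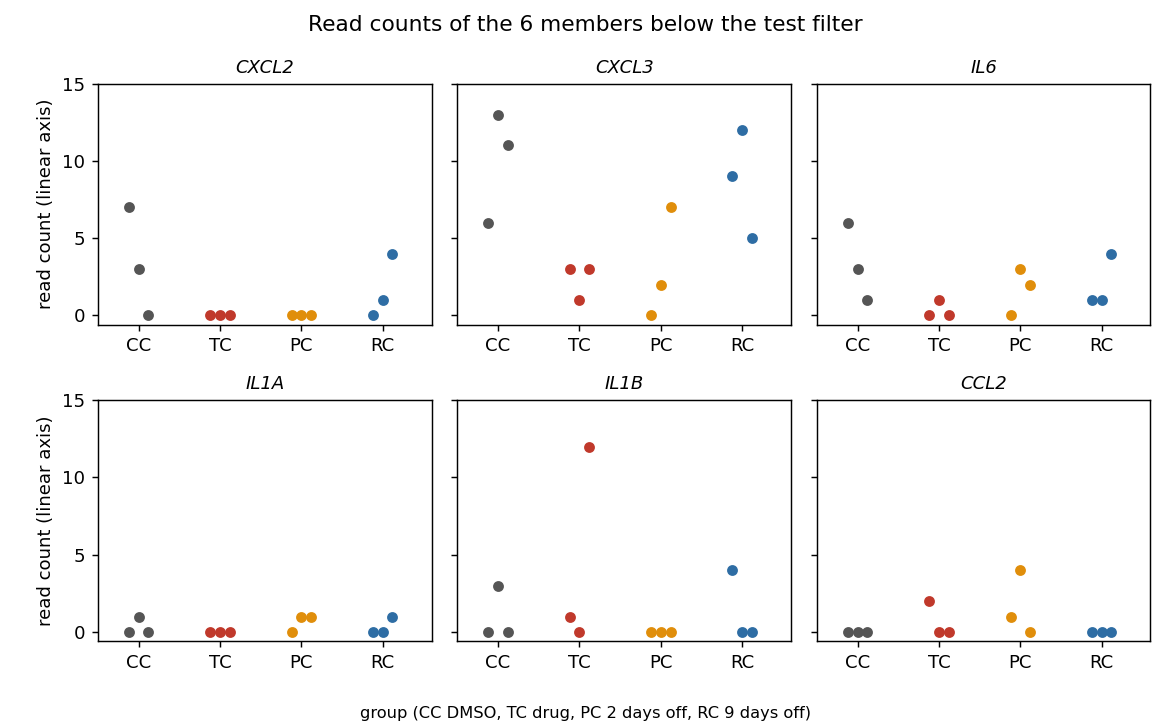
Read counts of CXCL2, CXCL3, IL6, IL1A, IL1B and CCL2, the members under the filter, on a linear axis in each of the 12 libraries (points, replicates 1 to 3 from left to right). No library holds more than 13 reads of any of these genes, and IL1B in TC replicate 3 stands alone at 12 reads.

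Against all tested genes, the members' counts read as follows. In TC against CC, 1 of the 4 tested members was called higher and 3 lower, where 33.2% and 34.7% of all tested genes were, and 3 were beyond 1.5-fold, as were 35.4% of all genes. In PC against CC, the counts were 1 higher and 3 lower beside 33.2% and 35.9% of all genes, and 4 members were beyond 1.5-fold beside 37.1%. In RC against CC, none was called in either direction by edgeR or by DESeq2, none was beyond 1.5-fold, and none had an unadjusted p under 0.05 with either tool, where 18.2% of all genes were higher, 19.1% lower and 3.87% beyond 1.5-fold. In PC against TC, 1 was higher and 1 lower beside 12.2% and 12.5%, and 0 of 4 were beyond 1.5-fold beside 3.48% (2 of the 4 had an unadjusted p under 0.05). In RC against PC, 3 were higher and 1 lower beside 35.7% and 34.2%, and 4 were beyond 1.5-fold beside 38.7%. CXCL8 and CXCL1 had been kept by their levels in CC and RC, and a large share of all genes was called, so nothing about the set follows from these counts. TC, PC and RC were set against the same 3 CC libraries.

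**Figure D3:**
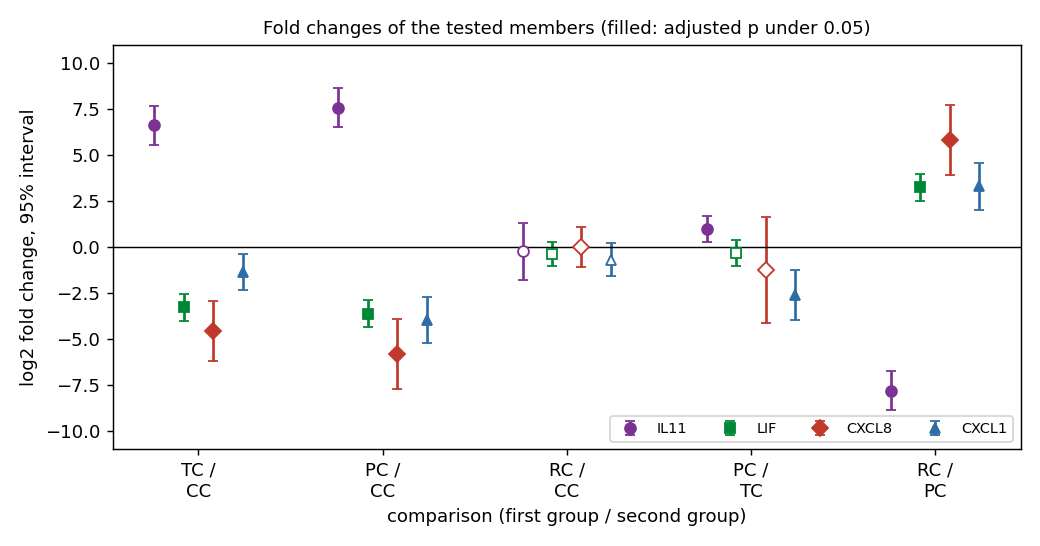
Log2 fold change of IL11, LIF, CXCL8 and CXCL1 in the 5 comparisons, with 95% intervals from the edgeR fit and filled symbols where the adjusted p is under 0.05. IL11 lies above 0 and the other 3 genes below it in TC and PC against CC, all 4 intervals include 0 in RC against CC, and the signs are turned in RC against PC.

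Over the 12 libraries, genes with a pattern close to that of LIF included SWAP70 (Pearson r = 0.996 of log2 CPM) and MICAL3 (0.993). The pattern of IL11 was most like those of DBNDD1 (0.998), TMUB2 (0.997) and the long noncoding RNA GRASLND (0.997). Such likeness was common, with 2016 genes above 0.9 for LIF and 2346 for IL11. SWAP70 and MICAL3 had their highest level in CC replicate 3 (225 and 168 CPM), as LIF did.

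Some receptors of these signals were called too, in TC at a share close to that of all genes. In RC all 7 tested receptors were called, a larger share than that of all genes, but in both directions and none beyond 1.5-fold. This difference in shares was not tested. Of 12 receptor genes, 7 were tested, CXCR1, CCR2 and ACKR1 were listed at 0 in every library, CXCR2 had 4 reads in all and IL1R2 had 75. In TC 3 were lower and 2 higher than in CC, in PC 4 lower and 2 higher, and in RC 5 lower and 2 higher. These counts and those of the lists below stand beside 34.7% lower and 33.2% higher of all tested genes in TC. The same shares were 35.9% and 33.2% for PC, and for RC 19.1% and 18.2%. The median log2 fold changes of the 7 were -0.21, -0.48 and -0.33, beside -0.02, -0.04 and 0.00 over all tested genes. In bulk RNA, fewer cells that express a gene and less RNA per cell cannot be told apart.

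IL1RAP, the partner chain that IL1R1 needs to signal, had the largest fall in TC among the tested receptors. It stood at 368, 352 and 385 CPM in CC, 33.6, 43.8 and 44.7 CPM in TC, 29.2, 30.7 and 31.0 CPM in PC, and 295, 289 and 302 CPM in RC. TC and PC lay far below CC and RC, with log2 fold changes of -3.18 ± 0.10 (adjusted p = 1.71e-10) and -3.60 ± 0.10 (adjusted p = 6.74e-11) against CC, and RC stayed below CC by -0.32 ± 0.09 (adjusted p = 0.0168). IL1R1 itself was low, at 2.83 ± 0.29 CPM in CC and 2.45 ± 0.34 CPM in TC, where it did not pass the test (log2 fold change -0.21, adjusted p = 0.300). It was lower in RC (1.96 ± 0.30 CPM, adjusted p = 0.0344).

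LIFR, the receptor of LIF, fell in TC and PC as its ligand did and was above the control level in RC. Its levels were 27.5, 32.1 and 32.7 CPM in CC, 11.5, 15.6 and 15.8 CPM in TC, 13.9, 12.3 and 12.4 CPM in PC, and 54.6, 50.1 and 45.4 CPM in RC. The log2 fold changes against CC were -1.10 ± 0.12 in TC, -1.26 ± 0.13 in PC and 0.70 ± 0.12 in RC, with adjusted p of 6.81e-06, 2.06e-06 and 0.000944. OSMR, the receptor chain of oncostatin M, fell from 134 ± 7.19 CPM in CC to 75.1 ± 16.8 CPM in TC and 39.3 ± 4.87 CPM in PC, and was at 78.9 ± 5.25 CPM in RC, all called lower than CC (adjusted p = 0.000157, 2.76e-07 and 0.00109).

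IL6ST, the chain shared by the family, was at 271 ± 36.9 CPM in CC and 271 ± 18.8 CPM in TC (log2 fold change 0.00, adjusted p = 0.992). It was lower in PC (195 ± 6.88 CPM, log2 fold change -0.48 ± 0.09, adjusted p = 0.000446) and in RC (215 ± 8.42 CPM, -0.33 ± 0.09, adjusted p = 0.0120). The 2 receptors called higher in TC and PC were named after their values were seen. IL11RA, which binds IL11, rose from 12.9 ± 0.69 CPM in CC to 20.7 ± 0.45 CPM in TC and 31.0 ± 1.82 CPM in PC, and was at 10.2 ± 0.32 CPM in RC. IL6R, which binds IL6, rose from 46.1 ± 7.17 CPM in CC to 70.8 ± 7.75 CPM in TC and 74.9 ± 2.25 CPM in PC and stayed higher in RC (69.6 ± 6.26 CPM). IL11 and IL11RA both rose in TC and PC, and LIF and LIFR both fell, while IL6R rose with IL6 close to absent. Whether ligands and receptors changed together was not tested.

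**Figure D4:**
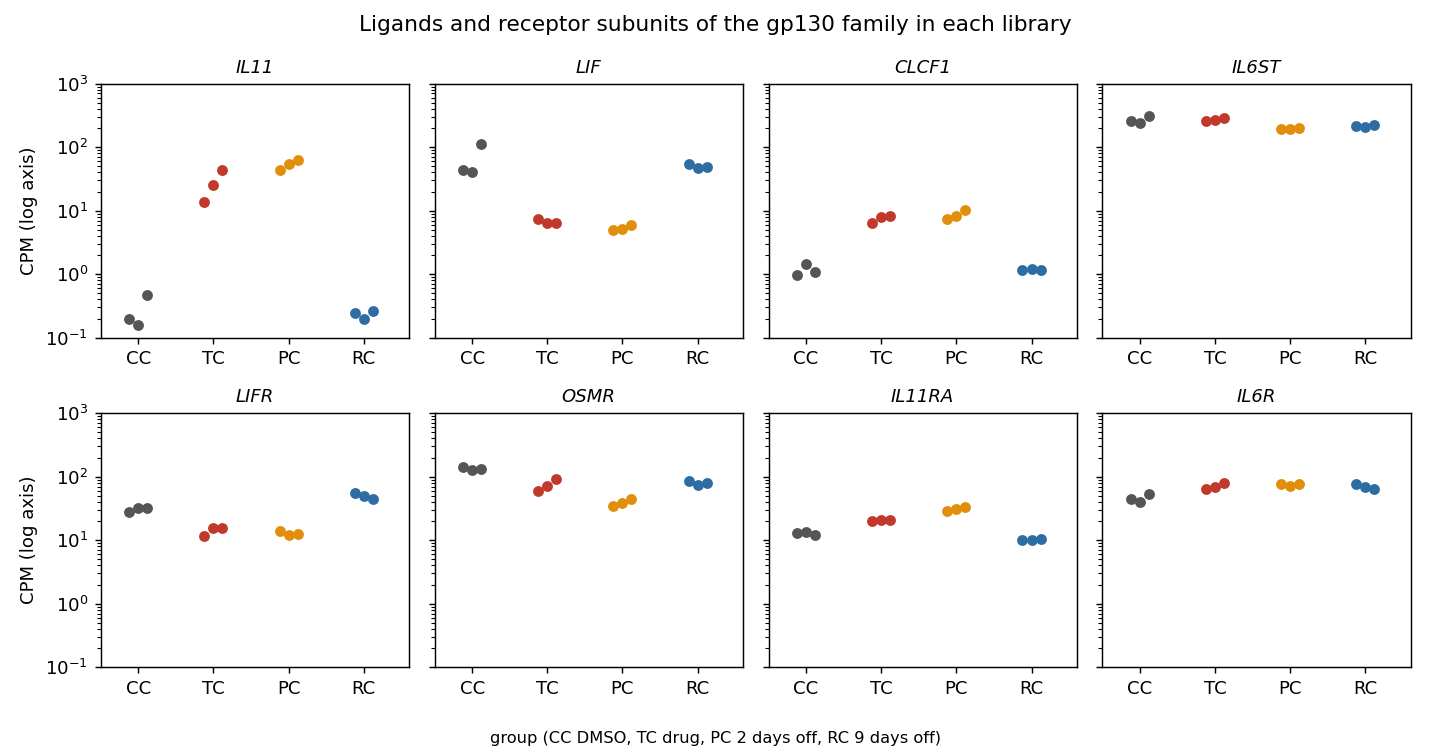
Level in CPM, on a log axis, of the ligands IL11, LIF and CLCF1 and the receptor chains IL6ST, LIFR, OSMR, IL11RA and IL6R in each of the 12 libraries (points, replicates 1 to 3 from left to right). IL11, CLCF1 and IL11RA are higher and LIF, LIFR and OSMR lower in TC and PC than in CC, and IL6ST lies between 191 and 313 CPM in every library.

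Inhibitors and feedback genes moved in both directions. Of 14 listed, 11 were tested, IL1RN and NFKBIB were listed at 0 in every library, and PTPN6 had 53 reads in all. The 0 of NFKBIB, like that of MIF below, says only how it is listed. In TC 3 were higher and 3 lower, in PC 4 higher and 3 lower, and in RC 1 higher and 3 lower, with medians of 0.07, -0.17 and 0.23 on the log2 scale. SIGIRR, a decoy-like receptor that damps IL1 signalling, fell from 1.30 ± 0.18 CPM in CC to 0.318 ± 0.134 CPM in TC and 0.300 ± 0.100 CPM in PC (adjusted p = 0.000224 and 0.000171) and was at 0.631 ± 0.105 CPM in RC. TNFAIP3, the ubiquitin-editing enzyme A20 that shuts down NF-kappaB signalling, fell from 3.52 ± 0.62 CPM to 1.33 ± 0.04 CPM in TC and 1.74 ± 0.18 CPM in PC (adjusted p = 1.21e-05 and 0.000157). SOCS3, the feedback inhibitor of gp130 signalling, rose from 9.77, 13.5 and 4.49 CPM in CC to 19.2, 17.6 and 22.9 CPM in TC (log2 fold change 1.11 ± 0.29, adjusted p = 0.00443, and 0.78 without CC replicate 3). The other genes called in TC, named after their values were seen, were NFKBIA (log2 fold change 1.00) and ZFP36 (0.75), which were higher, and ZFP36L1 (-0.72), which was lower. NFKBIA, the inhibitor that holds NF-kappaB in the cytoplasm, was at 14.7 ± 2.21 CPM in CC, 29.4 ± 1.96 CPM in TC, 43.6 ± 2.48 CPM in PC and 11.7 to 12.6 CPM in RC.

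All 14 listed transcription factors were tested. In TC 5 were higher and 5 lower, in PC 4 higher and 5 lower, and in RC 2 higher and 5 lower, with medians of -0.12, 0.06 and -0.20 on the log2 scale. JUN, a subunit of AP-1, was at 46.7 ± 2.51 CPM in CC, 952 ± 15.9 CPM in TC, 719 ± 44.7 CPM in PC and 18.8 ± 1.87 CPM in RC. Its log2 fold change was 4.35 ± 0.09 in TC (adjusted p = 8.17e-12) and 3.94 ± 0.09 in PC (adjusted p = 1.39e-11), and in RC it was lower than in CC by -1.31 ± 0.08 (adjusted p = 2.20e-06). ATF3, a stress-induced partner of JUN, was at 27.1, 20.7 and 45.0 CPM in CC and rose to 263 to 293 CPM in TC and PC (log2 fold changes 3.15 ± 0.22 and 3.20 ± 0.22, and 3.53 and 3.59 without CC replicate 3). FOSL1, another AP-1 subunit and an output of ERK signalling, was at 43.4, 38.0 and 88.6 CPM in CC, again highest in replicate 3, and at 50.1 ± 3.62 CPM in TC, and passed the test in none of the 5 comparisons. Without CC replicate 3 FOSL1 was called higher in TC (0.31, adjusted p = 0.00947) and in PC (0.72, adjusted p = 2.84e-05).

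CEBPB, a C/EBP factor known for driving IL6 and CXCL8, fell from 49.0, 38.2 and 51.9 CPM in CC to 10.6 to 11.9 CPM in TC and 6.94 to 8.68 CPM in PC, and was at 25.7 to 31.2 CPM in RC. The log2 fold changes against CC were -2.07 ± 0.13, -2.59 ± 0.13 and -0.68 ± 0.12, and no TC, PC or RC library reached the lowest CC library. RELA, the main activating subunit of NF-kappaB, rose from 66.6 ± 5.26 CPM to 113 ± 3.46 CPM in TC and 104 ± 1.15 CPM in PC (log2 fold changes 0.76 ± 0.06 and 0.65 ± 0.06). NFKB1, its partner, was at 93.2 ± 9.89 CPM in CC, 89.4 ± 5.94 CPM in TC and 106 ± 2.18 CPM in PC, and passed the test in neither. STAT3, which gp130 activates, was at 173 to 203 CPM in CC and rose to between 284 and 313 CPM in TC (0.67 ± 0.07, adjusted p = 2.23e-06). It fell by 0.81 ± 0.07 from TC to PC (adjusted p = 6.97e-06), where its libraries overlapped those of CC. The others called in TC were named after their values were seen: FOS (0.61) was higher, and CEBPD (-0.93), NFKB2 (-1.15), NFKBIZ (-0.65) and RELB (-0.53) were lower.

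Of 16 signal transducers, 13 were tested, and CASP1, PYCARD and NLRP3 of the inflammasome had 37, 85 and 3 reads in all. In TC 8 were higher and 1, JAK2 (-0.31, named after its value was seen), was lower, beside 33.2% and 34.7% of all tested genes. In PC 7 were higher and 4 lower, beside 33.2% and 35.9%, and in RC 4 higher and 3 lower, beside 18.2% and 19.1%. The medians were 0.39, 0.39 and 0.16 on the log2 scale, beside -0.02, -0.04 and 0.00 over all tested genes. TNFRSF1A, the main receptor of TNF, rose from 118, 130 and 127 CPM in CC to 243, 309 and 359 CPM in TC and to 335, 342 and 374 CPM in PC (log2 fold changes 1.28 ± 0.12 and 1.49 ± 0.12). TRAF6, a ubiquitin ligase that relays IL1 signals, rose from 14.3 ± 2.73 CPM to 31.7 ± 1.21 CPM in TC and 31.0 ± 1.86 CPM in PC. IKBKG, the scaffold of the kinase that frees NF-kappaB, rose from 8.58 ± 1.73 CPM to 17.3 ± 1.01 CPM in TC and 19.3 ± 4.54 CPM in PC. All 3 stayed higher in RC than in CC, by log2 fold changes of 0.32, 0.37 and 0.79 (adjusted p = 0.0487, 0.0237 and 0.00407).

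**Figure D5:**
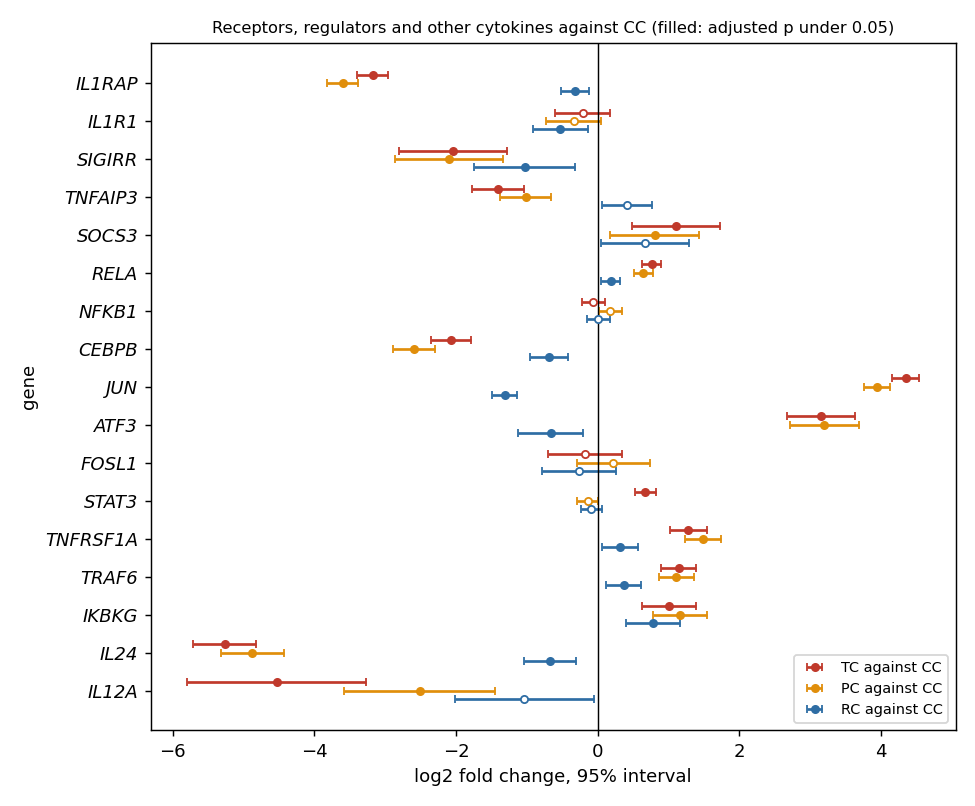
Log2 fold change against CC, with 95% intervals, of receptors, inhibitors, transcription factors, transducers and other cytokines named in the text, for TC (red), PC (orange) and RC (blue), with filled symbols where the adjusted p is under 0.05. JUN and ATF3 lie above 3 and IL24 below -4 in TC and PC, and the RC values of all genes shown lie between -1.31 and 0.79.

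Of 37 other cytokines and chemokines on the list, 14 were tested and 11 were listed at 0 in every library, TNF, CSF2, CSF3, CCL5 and MIF among them. MIF is made by most cells, so its 0 says only how it is listed. In TC 4 of the 14 were higher and 8 lower than in CC, in PC 2 higher and 9 lower, and in RC 1 higher and 3 lower. The median log2 fold changes were -0.94, -0.99 and -0.36, and those in TC and PC were the same with CXCL14 at its bound. From PC to RC 8 rose and 2 fell, beside 35.7% higher and 34.2% lower of all tested genes. The median of the 14 was 0.99, beside 0.015 over all tested genes. CCL20 and IL15, both among the 8 and named after their values were seen, passed the filter mainly through CC and RC. Their scaled mean counts were 55.3 and 39.2 in CC, 61.0 and 25.8 in RC, and 8.60 and 8.22 in PC, so their rise is given as a description. CCL20, IL15 and IL12A, which passed in the same way, are also among the genes counted lower in TC and PC. CXCL14, which passed through TC and PC, is among those counted higher there. The counts and medians of this list are therefore a description too.

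IL24, a cytokine of the IL10 family first found in differentiating melanoma cells, was well expressed in control cells. It stood at 582, 517 and 399 CPM in CC, 16.2, 10.2 and 12.5 CPM in TC, 19.7, 17.9 and 13.5 CPM in PC, and 318, 311 and 314 CPM in RC. IL24 fell by 5.27 ± 0.21 on the log2 scale in TC (adjusted p = 7.84e-10) and by 4.87 ± 0.20 in PC (adjusted p = 1.16e-09), and in RC it remained lower than in CC by -0.67 ± 0.17 (adjusted p = 0.00895). IL12A, a subunit of interleukin 12, was at 1.77 ± 0.52 CPM in CC, 0.0691 ± 0.0656 CPM in TC, 0.309 ± 0.060 CPM in PC and 0.869 ± 0.314 CPM in RC. It passed the filter mainly through the groups where it was high (scaled mean counts of 79.4 in CC and 39.8 in RC, against 3.03 in TC), so its fall in TC and PC (adjusted p = 1.97e-05 and 0.000586) is given as a description.

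CXCL14, a chemokine of skin, had no read in any CC or RC library and was at 8.06, 32.6 and 132 CPM in TC and 11.2, 22.4 and 32.5 CPM in PC. Against a floor of 3 reads per CC library its mean was at least 843-fold higher in TC and at least 322-fold higher in PC. Without TC replicate 3 the bound in TC was 297-fold. CXCL14 passed the filter only through TC and PC. Its TC libraries spread widely and enclosed those of PC. TC replicate 3 was the highest TC library for both CXCL14 and IL11. CLCF1, a further ligand of the gp130 family, named after its values were seen, went with IL11 in direction. It was at 1.15 ± 0.24 CPM in CC, 7.58 ± 1.04 CPM in TC, 8.70 ± 1.42 CPM in PC and 1.19 ± 0.02 CPM in RC, with log2 fold changes of 2.71 ± 0.19 in TC and 2.91 ± 0.19 in PC (adjusted p = 9.18e-08 and 4.92e-08). The other genes called higher in TC, CCL28 (0.70) and CSF1 (0.33), were likewise named after their values were seen.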

How the data were processed

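The deposited table holds raw read counts per gene for the 12 libraries. Per the methods and the submitters' processing notes, the authors trimmed reads with fastp 0.20.1, aligned them to GRCh38.p13 with HISAT2 2.2.1 and counted reads on exons with HTSeq 0.13.5 and the NCBI annotation. Genes with a mean count of at least 10, scaled to library size, were tested in a single quasi-likelihood fit of the 4 groups with TMM factors (0.965 to 1.02) and 8 residual degrees of freedom (edgeR 4.0.16, R 4.3.3). A call is a Benjamini-Hochberg adjusted p under 0.05 over all 15916 tested genes (glmQLFTest, two-sided), and a call beyond 1.5-fold an adjusted p of at most 0.05 (glmTreat). DESeq2 1.42.0 was an alternative. CPM uses the normalized library size, and SE derives from the F statistic. Read ratios have exact binomial intervals.

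The members and lists were chosen with earlier results of these data known. Besides the members, the text names DUSP6, the 3 genes most like each of LIF and IL11 (1 of them is not reported here), IL6ST, IL1R1, LIFR, RELA, NFKB1, CEBPB, FOSL1, STAT3 and, per list, the 3 called genes with the largest change in TC and no overlap with CC. The procedure was tested on simulated data. Within groups, all pairs of libraries differed by more than sampling noise.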

Additional observations from a re-analysis of the deposited data

How the results depend on the processing

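The calls of the 4 tested members in PC against CC and RC against PC held in all 20 alternatives, as did the lack of calls in RC against CC. In TC against CC, IL11, LIF and CXCL8 were called in all 20, and CXCL1 in 17. The CXCL1 call was also lost with CC replicate 3 and TC replicate 3 both left out (-1.33, adjusted p = 0.0549), an alternative chosen after seeing the data. CXCL8 and CXCL1 had passed the filter through CC and RC. Their calls in comparisons of CC or RC with TC or PC are therefore a description, also where they held in the alternatives. In PC against TC, the count of members called higher was 0 with DESeq2, 0 with only the 2 groups compared, and 0 to 1 with a replicate left out. The count called lower was 1 to 2 with a replicate left out and 2 with both libraries left out. The count beyond 1.5-fold was 0 to 1 with a replicate left out and 1 with both left out. In RC against CC the uncalled log2 fold changes of CXCL8, LIF and IL11 changed sign under some alternatives, and that of CXCL1 did not (-0.82 to -0.53). For CXCL8 the value was 0.0167 with library totals in place of TMM, 0.15 with a replicate block, -0.38 to 0.50 with a replicate left out and 0.50 with both left out. For LIF it was -0.64 to 0.26 with a replicate left out and 0.25 with both left out. For IL11 it was -0.53 to 0.40 with a replicate left out and 0.40 with both left out. Beyond the libraries left out, the cause was not tested. The deviations of same-numbered libraries of different groups correlated at r of -0.037 to 0.155 over 18 pairs, and those of differently numbered ones at -0.121 to 0.042 over 36 pairs. Not every same-numbered pair was above 0.1, so the numbers were not taken to pair the libraries. Between CC, TC and PC, however, same-numbered pairs were above all differently numbered pairs of the same groups. They were at 0.039 to 0.081 for CC with TC, 0.009 to 0.042 for CC with PC and 0.068 to 0.155 for TC with PC. The differently numbered pairs reached at most 0.019, 0.0045 and 0.0034. Pairs with RC did not show this. Whether the numbers pair the other libraries was thus not settled. A replicate block changed no call of a member and moved the calls over all genes from 10807 to 10858 in TC against CC. Depth limits CXCL8, CXCL1 and the 6 members under the filter.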
